A study of Homo sapiens with 6 samples.

Results

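The Fanconi anemia and homologous recombination genes considered here are 37 genes that repair DNA interstrand crosslinks and double-strand breaks. They were picked by current gene symbol from the 58884 genes of the count files, as a list drawn up with earlier results of these data known, and all 37 were found. RNA was sequenced from HSC-4, an established human oral squamous cell carcinoma line, after 24 h with 50 µM DAPT, an inhibitor of γ-secretase that stops the release of the active Notch fragment. The comparison asks how transcript levels differ when Notch cleavage is blocked. The DAPT group and the control group hold 3 libraries each, all of the same line with no genetic change. The study's methods describe the controls as cells given 0.5% DMSO, whereas the count columns of these libraries carry the letters GM, which nothing in the sources used here explains, so if those cultures lacked DMSO, an effect of the vehicle and that of DAPT cannot be told apart. The labels do not state that replicates came from separate cultures, so p-values measure the spread between these libraries, which may be technical. The results come from 1 cell line, 1 dose and 1 time.

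In the Fanconi anemia pathway, a nuclear core complex recognises a stalled fork at a crosslink and attaches ubiquitin to the FANCD2 and FANCI pair, which then brings in nucleases that cut the crosslink out. The break that remains is trimmed back by resection enzymes, and BRCA2 and its partners then prepare the single strand to invade and copy the sister chromatid. Many of these genes are known to be transcribed mainly in late G1 and S phase, when a sister chromatid is being made.

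Total counts lay between 12276313 and 16317672 per library. Levels are given in CPM, the reads of a gene as a share of its library after TMM scaling, on the usual counts-per-million scale. HES1 and HEY1, direct Notch targets, were lower with DAPT, HES1 at 47.0 against 27.5 CPM and HEY1 at 34.6 against 8.75 CPM (control against DAPT, means of 3 libraries), with a log2 fold change of -0.77 for HES1 and -1.98 for HEY1. The keratinocyte marker KRT5 was abundant but lower with DAPT (2701 against 1315 CPM), while KRT14 was scarce (3.17 against 0.443 CPM). In all, 6 of 10 epithelial markers were lower and 2 higher with DAPT. Of the immune markers, the T cell marker CD3E had no reads, while CD14 had 11.7 CPM in controls and 9.43 CPM with DAPT. Immune markers summed to between 8.92 and 12.8 CPM and endothelial markers to at most 1.49 CPM in any library. Control replicate 1 stood apart. Its 6 fibroblast markers summed to 553 CPM against 50.0 to 58.3 CPM in the other 5 libraries, and COL1A2 had 215 CPM there against at most 2.02 CPM elsewhere. Calls lost when this library was left out are given with and without it.

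DAPT-treated cells held less RNA for 19 of the 37 genes and more for 2, NBN and MUS81, while 16 did not pass the test. All 37 passed the low-count filter. The test was edgeR's quasi-likelihood F test with Benjamini-Hochberg adjustment over 15001 genes, called at an adjusted p under 0.05. The 19 lower genes are 51.4% of the 37, where 18.0% of all tested genes were lower, and the 2 higher genes are 5.41%, where 17.2% of all tested genes were higher. The median log2 fold change was -0.19 over the 37 genes and 0.01 over all tested genes. The decreases were moderate, from 11.2% to 39.3% below the control level, and no gene changed by 2-fold or more.

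Summed over the 37 genes, libraries of each group lay close together, while single genes could spread more, such as BRIP1 at 28.5, 26.4 and 20.4 CPM in controls. The summed level of the 37 genes was 1395, 1389 and 1392 CPM in the 3 controls and 1203, 1203 and 1195 CPM in the 3 DAPT libraries, so the groups did not overlap. Every DAPT library lay below every control library for 21 genes (56.8%, against 22.7% of all tested genes) and above for 4 (10.8%, against 23.6%), and the groups overlapped for 12. In RNA from whole cultures, fewer cells in S phase and less of these RNAs per cell cannot be told apart. A list of 40 other S phase genes moved in the same direction, with a summed level of 3741 to 3798 CPM in controls and 2601 to 2658 CPM with DAPT, and its part in the change of the 37 genes was not tested.

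**Figure D1:**
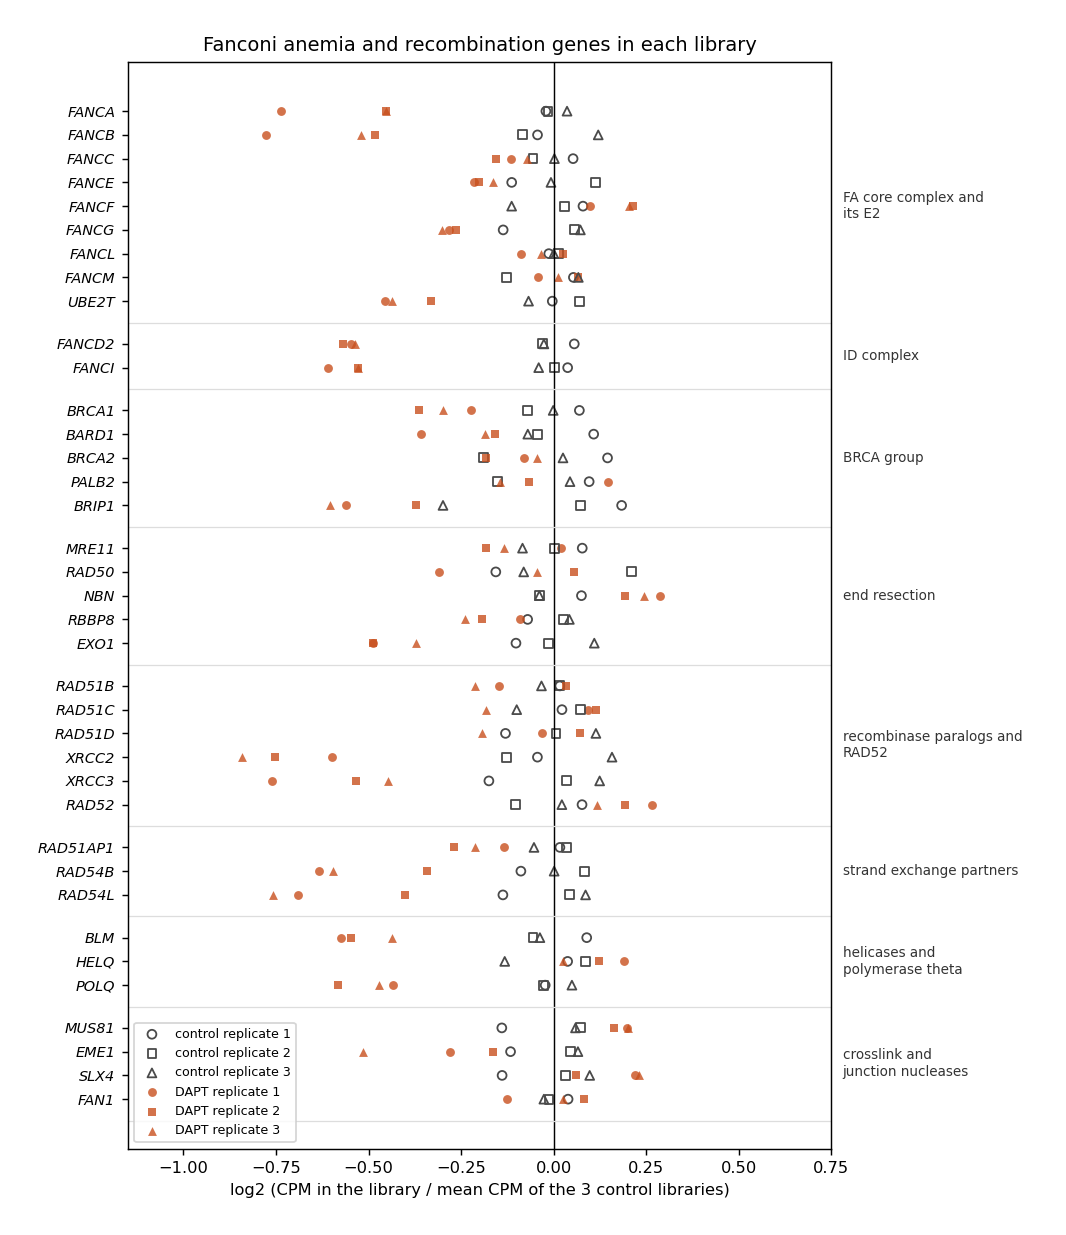
Level of each of the 37 genes in each library, as log2 of its CPM over the mean CPM of the 3 controls (horizontal axis); open symbols are controls, filled symbols DAPT, and symbol shape gives the replicate number. The 3 DAPT symbols sit left of all control symbols for 21 genes and right of them for 4.

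Promoters of the 37 genes were searched for short motifs linked to cell cycle transcription. The windows run from 250 bases before to 50 after each RefSeq transcript start (GRCh38.p14). At least 1 was available for 34 of the 37 genes, for 45 windows in all. FANCI, RAD54B and NBN had none and were not searched, so the windows of lower genes stand for 17 of the 19. The E2F family of factors drives S phase genes. Its motif was searched on both strands as the letters TTTGGCGC, TTTCCCGC, TTTCGCGC or TTTGCCGC, and in windows of the 37 genes no match overlapped a match to another motif. It stood in 4 of the 21 windows of lower genes (19.0%), in 1 of the 23 windows of genes not called (4.35%) and in 3.31% of all 35116 windows. The stretches that hold it are printed 5′ to 3′ on the strand of the gene, with the match in capitals, which appears as its reverse complement where it lies on the other strand. FANCA lies on the minus strand at chr16:89816768-89816847, FANCD2 on the plus strand at chr3:10026362-10026442, EXO1 on the plus strand at chr1:241848129-241848215, XRCC2 on the minus strand at chr7:152676113-152676216 and FANCC, which was not called, on the minus strand at chr9:95317730-95317909.
FANCA: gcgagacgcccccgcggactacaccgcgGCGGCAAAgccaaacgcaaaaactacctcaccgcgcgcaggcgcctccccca
FANCD2: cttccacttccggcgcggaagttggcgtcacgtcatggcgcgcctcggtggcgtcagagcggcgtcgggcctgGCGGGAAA
EXO1: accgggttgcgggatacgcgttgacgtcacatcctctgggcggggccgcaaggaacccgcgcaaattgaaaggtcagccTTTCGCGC
XRCC2: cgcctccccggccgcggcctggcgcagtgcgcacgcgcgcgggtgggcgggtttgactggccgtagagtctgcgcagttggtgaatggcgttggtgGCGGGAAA
FANCC: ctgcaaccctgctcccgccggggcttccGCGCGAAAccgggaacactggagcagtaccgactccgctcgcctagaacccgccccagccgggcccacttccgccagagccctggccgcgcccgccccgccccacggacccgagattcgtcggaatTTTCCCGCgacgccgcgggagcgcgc

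With position +1 as the transcript start and no position 0, the first base of the match stood at -172 in FANCA, at -2 in FANCD2, at +5 in EXO1 and at +22 in XRCC2. FANCC held 2 matches, at -172 and -46. The CCAAT box, bound by NF-Y and searched as CCAAT on both strands, stood in 9 of the 21 windows of lower genes (42.9%). It stood in 6 of the 23 windows of genes not called (26.1%). Over the 37 genes, 16 of 45 windows held it (35.6%), close to the 34.6% of all windows. Windows with at least 3 CCAAT boxes made up 3.26% of all windows, and 3 lower genes had one, XRCC3 with 5 boxes and BLM and BRIP1 with 3 each. These stretches are shown for that reason, with the boxes in capitals. XRCC3 lies on the minus strand at chr14:103715472-103715681, BLM on the plus strand at chr15:90717196-90717336 and BRIP1 on the minus strand at chr17:61863548-61863658.
XRCC3: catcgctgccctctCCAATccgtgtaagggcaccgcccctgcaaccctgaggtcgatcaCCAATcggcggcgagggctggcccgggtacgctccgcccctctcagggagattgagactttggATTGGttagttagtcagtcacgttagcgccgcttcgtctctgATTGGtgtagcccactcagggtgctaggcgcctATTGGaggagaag
BLM: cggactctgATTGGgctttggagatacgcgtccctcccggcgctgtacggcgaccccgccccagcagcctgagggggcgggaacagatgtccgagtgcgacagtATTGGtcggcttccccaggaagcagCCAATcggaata
BRIP1: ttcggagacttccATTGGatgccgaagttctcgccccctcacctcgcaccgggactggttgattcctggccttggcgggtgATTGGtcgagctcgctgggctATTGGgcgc

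TTTGAA and GTGGGAA were searched as well and were no more frequent in windows of the 37 genes than elsewhere. TTTGAA, the core of the cell cycle genes homology region, stood in 6 of their 45 windows (13.3%, against 15.2% of all windows). GTGGGAA, letters read by the Notch partner RBPJ, stood in 2 (4.44%, against 6.25%), both overlapping windows of FAN1, and in 0 of the 21 windows of lower genes. A match is a description of these letters and not of a bound site, and the absence of a match says nothing of the factor.

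The Fanconi anemia core complex and its ubiquitin-conjugating enzyme were divided. Of 9 genes, 4 were lower and 5 did not pass the test, and the median log2 fold change was -0.19. For this and each later count by role, the shares over all tested genes were 18.0% lower and 17.2% higher. Each role holds few genes. FANCA, a large scaffold subunit of the core complex (chromosome 16, 89737549 to 89816657, minus strand), gave 24.8, 24.9 and 25.8 CPM in controls and 15.1, 18.4 and 18.4 CPM with DAPT. All DAPT libraries lay below all controls, and DAPT replicate 1 was the lowest. FANCA stood at 68.6% of its control level, with a log2 fold change of -0.54 (SE 0.09, edgeR adjusted p = 4.27e-05). FANCB, which binds the ligase FANCL within the complex (chromosome X, 14835961 to 14873069, minus strand), gave 10.8, 10.5 and 12.1 CPM in controls and 6.50, 7.97 and 7.76 CPM with DAPT. The FANCB groups did not overlap, with a log2 fold change of -0.59 (SE 0.12, edgeR adjusted p = 0.000621).

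UBE2T and FANCG were the other lower genes of this group. UBE2T, the E2 enzyme that passes ubiquitin to FANCD2 and FANCI, fell from 48.4 ± 2.32 to 36.5 ± 1.69 CPM (SD, n = 3). Its log2 fold change was -0.41 (SE 0.07, edgeR adjusted p = 0.000103). FANCG, a core subunit that links FANCA to the rest, gave 46.3, 52.9 and 53.5 CPM in controls and 41.8, 42.4 and 41.3 CPM with DAPT. Control replicate 1 was the lowest control for FANCG, but the groups still did not overlap. The log2 fold change of FANCG was -0.28 (SE 0.07, edgeR adjusted p = 0.00354), and -0.34 without control replicate 1.

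FANCL, the ubiquitin ligase itself, gave 43.1, 43.9 and 43.5 CPM in controls and 40.9, 44.3 and 42.5 CPM with DAPT, and the groups overlapped. Its log2 fold change was -0.03 (SE 0.07, edgeR adjusted p = 0.75). The other core genes that did not pass the test were the subunits FANCC at -0.12, FANCE at -0.19 and FANCF at 0.16 and the DNA translocase FANCM at 0.02 (log2 fold changes), and the direction of FANCM turned when single libraries were left out. FANCC and FANCE were below all controls in every DAPT library and FANCF was above all controls, without passing the adjusted test.

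The ID complex, the FANCD2 and FANCI pair that carries the ubiquitin mark, was lower in both members. FANCD2 (chromosome 3, 10026414 to 10101930, plus strand) gave 41.6, 39.2 and 39.3 CPM in controls and 27.4, 27.0 and 27.6 CPM with DAPT. The DAPT libraries lay within 1 CPM of each other and well below the controls. The log2 fold change of FANCD2 was -0.55 (SE 0.07, edgeR adjusted p = 3.25e-06). FANCI (chromosome 15, 89243949 to 89317261, plus strand) was the most read of the 37 genes in controls, at 189.6, 185 and 179.6 CPM in controls and 121, 128 and 128 CPM with DAPT. Again no DAPT library reached a control, and its adjusted p was the smallest of the 37 genes. FANCI had a log2 fold change of -0.56 (SE 0.05, edgeR adjusted p = 1.57e-08), with 67.8% of the control level left. FANCD2 is known to have partial pseudogene copies, and reads that fit a copy equally well were not counted.

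In the BRCA group, 3 of 5 genes were lower (60.0%, against 18.0% of all tested genes) and the other 2 did not pass the test. The median log2 fold change of the group was -0.24. BRIP1, a helicase that binds BRCA1 (chromosome 17, 61681266 to 61863521, minus strand), gave 28.5, 26.4 and 20.4 CPM in controls and 17.0, 19.4 and 16.5 CPM with DAPT. Control replicate 3 was low and came close to DAPT replicate 2, without overlap. BRIP1 had a log2 fold change of -0.52 (SE 0.11, edgeR adjusted p = 0.00121), and of -0.41 without control replicate 1. BRCA1, a ubiquitin ligase that promotes resection, gave 64.8, 58.8 and 61.7 CPM in controls and 52.9, 48.0 and 50.2 CPM with DAPT. Its groups were apart, with a log2 fold change of -0.29 (SE 0.06, edgeR adjusted p = 0.00108).

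BARD1, the obligate partner of BRCA1, gave 25.0, 22.5 and 22.1 CPM in controls and 18.1, 20.8 and 20.4 CPM with DAPT. The groups were apart, but by little. The log2 fold change of BARD1 was -0.24 (SE 0.08, edgeR adjusted p = 0.0313). This call was lost without control replicate 1 (-0.18, adjusted p = 0.131), without DAPT replicate 1 (-0.18, adjusted p = 0.153), without DAPT replicate 3 (-0.26, adjusted p = 0.0549), with the replicate number as a block (adjusted p = 0.0527), under scaling by library size alone (adjusted p = 0.0807) and in DESeq2 (adjusted p = 0.102). BRCA2, a mediator of strand exchange, and PALB2, which bridges BRCA1 and BRCA2, did not pass the test. BRCA2 gave 27.5, 21.8 and 25.3 CPM in controls and 23.5, 21.9 and 24.1 CPM with DAPT, and the groups overlapped. The log2 fold changes were -0.11 for BRCA2 and -0.02 for PALB2, and that of PALB2 turned positive in some fits. That of BRCA2 was -0.02 without control replicate 1 and -0.20 without control replicate 2, and passed in neither.

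Genes of end resection did not move one way. EXO1 and RBBP8 were lower, NBN was higher, and MRE11 and RAD50 did not pass the test, the median log2 fold change being -0.10. EXO1, the nuclease of long-range resection (chromosome 1, 241847967 to 241895148, plus strand), gave 53.2, 56.5 and 61.6 CPM in controls and 40.7, 40.7 and 44.1 CPM with DAPT. No DAPT library came near a control. The log2 fold change of EXO1 was -0.45 (SE 0.07, edgeR adjusted p = 3.42e-05).

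NBN, the signalling subunit of the MRE11, RAD50 and NBN complex that first binds a break, went the other way. It gave 120.1, 111 and 111 CPM in controls and 139, 130.3 and 135 CPM with DAPT. All DAPT libraries lay above all controls, control replicate 1 being the highest control. NBN had a log2 fold change of 0.24 (SE 0.05, edgeR adjusted p = 0.00116), and of 0.28 without control replicate 1. RBBP8, also called CtIP, which starts resection, gave 82.5, 88.2 and 89.2 CPM in controls and 81.3, 75.8 and 73.4 CPM with DAPT. DAPT replicate 1 lay just under control replicate 1. RBBP8 had a log2 fold change of -0.17 (SE 0.06, edgeR adjusted p = 0.0231). The RBBP8 call was lost without control replicate 2 (adjusted p = 0.0735), control replicate 3 (0.0849), DAPT replicate 2 (0.088) or DAPT replicate 3 (0.123), and under scaling by library size alone (0.0847).

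The nuclease MRE11 gave 52.0, 49.4 and 46.5 CPM in controls and 50.0, 43.4 and 44.9 CPM with DAPT, and the groups overlapped. For MRE11 the log2 fold change was -0.10 (edgeR adjusted p = 0.305), and -0.05 without control replicate 1. For RAD50, the ATPase that tethers the ends, 76.9% of exonic bases also belong to another annotated gene on its strand, where reads were not counted. Its 57 to 80 reads per library therefore cover a small share of the transcript, and its log2 fold change of -0.09 has the large SE of 0.16.

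The recombinase paralogs form complexes that assist strand exchange, and here only XRCC2 and XRCC3 passed the test of the 6 genes grouped with RAD52. XRCC2 (chromosome 7, 152644776 to 152676141, minus strand) had the largest decrease of the 37 genes. It gave 24.7, 23.3 and 28.4 CPM in controls and 16.8, 15.1 and 14.2 CPM with DAPT. The groups were far apart, and 60.7% of the control level remained. XRCC2 had a log2 fold change of -0.72 (SE 0.09, edgeR adjusted p = 3.07e-06). XRCC3, the partner of RAD51C (chromosome 14, 103697609 to 103715504, minus strand), gave 20.4, 23.6 and 25.1 CPM in controls and 13.6, 15.9 and 16.9 CPM with DAPT. Replicate 1 was the lowest library in both groups, and the groups did not overlap. Its log2 fold change was -0.57 (SE 0.10, edgeR adjusted p = 0.000109), and -0.66 without control replicate 1.

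RAD51C, which sits in both paralog complexes, gave 19.7, 20.4 and 18.1 CPM in controls and 20.7, 21.0 and 17.1 CPM with DAPT. Its groups overlapped fully, with a log2 fold change of 0.01 (SE 0.09, edgeR adjusted p = 0.928). RAD51B at -0.11 and RAD51D at -0.04 (log2 fold changes), the other subunits of the complex that holds XRCC2, did not pass the test either. RAD52, which anneals single strands, was above all controls in every DAPT library at a log2 fold change of 0.19, with an adjusted p of 0.17 in edgeR. The signs of RAD51C and RAD51D changed when single libraries were left out.

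The 3 genes grouped here as strand exchange partners, RAD54L, RAD51AP1 and RAD54B, were lower, with a median log2 fold change of -0.52. Among the other genes that assist strand exchange, BRCA2, RAD51B, RAD51C and RAD51D did not pass the test, while XRCC2 and XRCC3 were lower. RAD54L, a motor protein that promotes invasion of the sister chromatid (chromosome 1, 46247688 to 46278473, plus strand), gave 25.7, 29.1 and 30.0 CPM in controls and 17.5, 21.4 and 16.7 CPM with DAPT. DAPT replicate 2 was the highest of its group and still below every control. RAD54L had a log2 fold change of -0.60 (SE 0.09, edgeR adjusted p = 3.04e-05), and of -0.67 without control replicate 1. RAD51AP1, which stimulates strand exchange, gave 61.2, 62.0 and 58.3 CPM in controls and 55.1, 50.2 and 52.2 CPM with DAPT. The groups were apart by a small margin, with a log2 fold change of -0.20 (SE 0.06, edgeR adjusted p = 0.0139). That call was lost without control replicate 2 (adjusted p = 0.0557), DAPT replicate 2 (0.091) or DAPT replicate 3 (0.0569).

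RAD54B, a relative of RAD54L, was read least of the 37 genes, at 4.36, 4.91 and 4.64 CPM in controls and 2.99, 3.66 and 3.07 CPM with DAPT, from 40 to 70 reads per library. The groups did not overlap. The fitted change of RAD54B was -0.52 on the log2 scale (SE 0.17, edgeR adjusted p = 0.0222). The RAD54B call was lost in DESeq2 (adjusted p = 0.0951) and without control replicate 2 (0.074), DAPT replicate 1 (0.0772) or DAPT replicate 3 (0.0686). FSBP shares 73.8% of its exonic bases, where reads were not counted, so the RAD54B value is uncertain.

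Of the helicases and polymerase theta, BLM and POLQ were lower, while HELQ did not pass the test. BLM, the Bloom syndrome helicase that dissolves paired recombination junctions (chromosome 15, 90717346 to 90816166, plus strand), gave 42.9, 38.8 and 39.3 CPM in controls and 27.1, 27.6 and 29.8 CPM with DAPT. Its groups were clearly separated, with a log2 fold change of -0.52 (SE 0.07, edgeR adjusted p = 1.27e-05). POLQ, the polymerase of theta-mediated end joining (chromosome 3, 121431427 to 121546641, minus strand), gave 35.1, 35.0 and 36.9 CPM in controls and 26.4, 23.8 and 25.7 CPM with DAPT. Neither group spread over more than 3 CPM. POLQ had a log2 fold change of -0.49 (SE 0.07, edgeR adjusted p = 2.59e-05). The helicase HELQ gave 11.7, 12.1 and 10.4 CPM in controls and 13.0, 12.4 and 11.6 CPM with DAPT, with overlap and a log2 fold change of 0.11 (edgeR adjusted p = 0.449).

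The nucleases held a subunit pair with opposite signs. MUS81, the catalytic subunit that cuts stalled forks and junctions (chromosome 11, 65857126 to 65867653, plus strand), gave 56.8, 65.8 and 65.2 CPM in controls and 71.8, 70.1 and 72.0 CPM with DAPT. Every DAPT library lay above every control, and control replicate 1 was the lowest. Its log2 fold change was 0.19 (SE 0.06, edgeR adjusted p = 0.0203). The MUS81 call was lost without control replicate 1 (0.12, adjusted p = 0.081), DAPT replicate 1 (0.19, adjusted p = 0.0573), DAPT replicate 2 (0.20, adjusted p = 0.0536) or DAPT replicate 3 (0.19, adjusted p = 0.0737), and in DESeq2 (adjusted p = 0.0524).

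EME1, the main partner of MUS81, gave 18.6, 20.8 and 21.1 CPM in controls and 16.6, 18.0 and 14.1 CPM with DAPT. Its groups did not overlap, with a log2 fold change of -0.31 (SE 0.10, edgeR adjusted p = 0.0172). Without control replicate 2 the adjusted p was 0.055, without control replicate 3 it was 0.0623 and without DAPT replicate 3 it was 0.12. The scaffold SLX4 had a log2 fold change of 0.18 (edgeR adjusted p = 0.124), or 0.11 without control replicate 1, and passed only under scaling by library size alone (0.22, adjusted p = 0.0477). The crosslink nuclease FAN1 gave 54.2, 52.3 and 51.8 CPM in controls and 48.3, 55.8 and 53.7 CPM with DAPT, and overlapped, at -0.01 on the log2 scale.

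**Figure D2:**
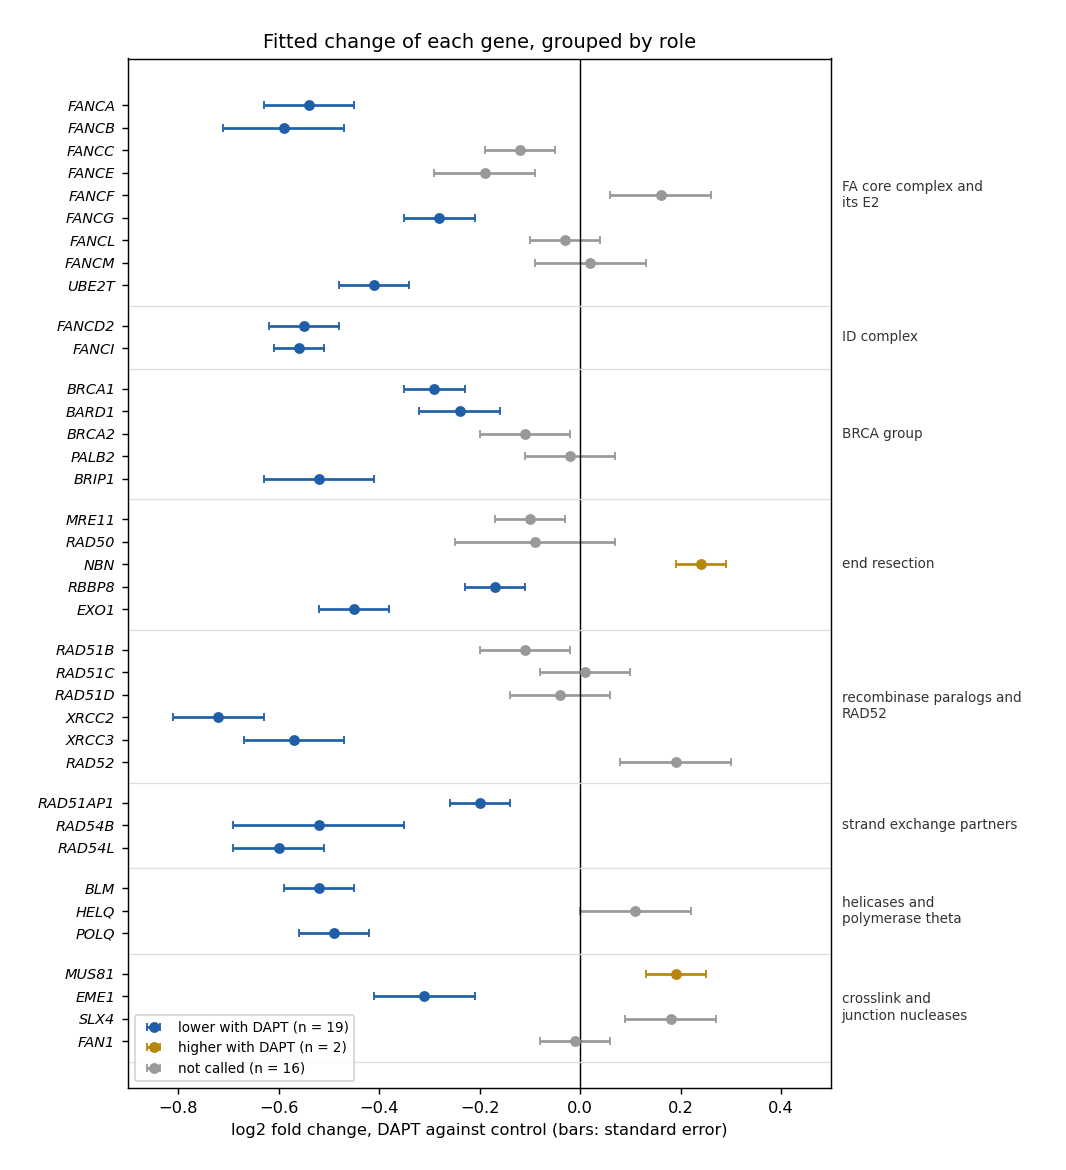
Fitted log2 fold change of each of the 37 genes with DAPT against control (horizontal axis; bars are the standard error), grouped by role. Called genes are blue where lower (19) and gold where higher (2), and values run from -0.72 for XRCC2 to 0.24 for NBN.

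The 16 genes that did not pass the test had log2 fold changes from -0.19 to 0.19 and adjusted p-values from 0.124 to 0.939, 10 of them below 0 and 6 above. The calls of 14 of the 19 lower genes and 1 of the 2 higher genes, NBN, held when each library was left out in turn. Without control replicate 1, the library with fibroblast transcripts, 18 genes were lower and 1 was higher, and the calls lost were those of BARD1 and MUS81. Under scaling by library size alone, 17 genes were lower and 3 higher, and over all tested genes 61.5% of calls were then higher, against 48.7% in the fit reported.

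Levels of different genes were compared per length, as RPKM, the CPM divided by the exon length in kilobases. That length joins all annotated exons of a gene and is not that of 1 transcript, so the order of genes depends in part on annotation. The 37 genes spanned from 0.473 RPKM for RAD50 to 29.3 RPKM for UBE2T in controls. UBE2T ranked highest in controls, at 29.3 ± 1.40 RPKM (SD, n = 3). FANCI at 23.8 and RAD51AP1 at 23.6 RPKM followed in controls and could not be ordered, since their libraries overlapped. NBN and FANCL, at 18.5 and 18.0 RPKM, overlapped as well. With DAPT, UBE2T at 22.1 ± 1.02 RPKM and NBN at 21.9 ± 0.695 RPKM (SD, n = 3) differed by less than their spread, while FANCI was at 16.2 RPKM.

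FANCD2 transcripts were at 4.78 RPKM in controls, well under those of its partner FANCI. Reads that fit a pseudogene copy of FANCD2 equally well were not counted, which lowers its level by an amount not measured here. BRCA2 was among the lowest, at 2.03 ± 0.233 RPKM in controls, with RAD51D, FANCM, RAD54B and RAD50 below it. The ranks of RAD50 and RAD54B rest on few countable bases. Over the exon length that no other gene shares, RAD50 came to 2.05 RPKM in place of 0.473 and RAD54B to 3.33 RPKM in place of 0.872, an alternative added after the data were seen.

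**Figure D3:**
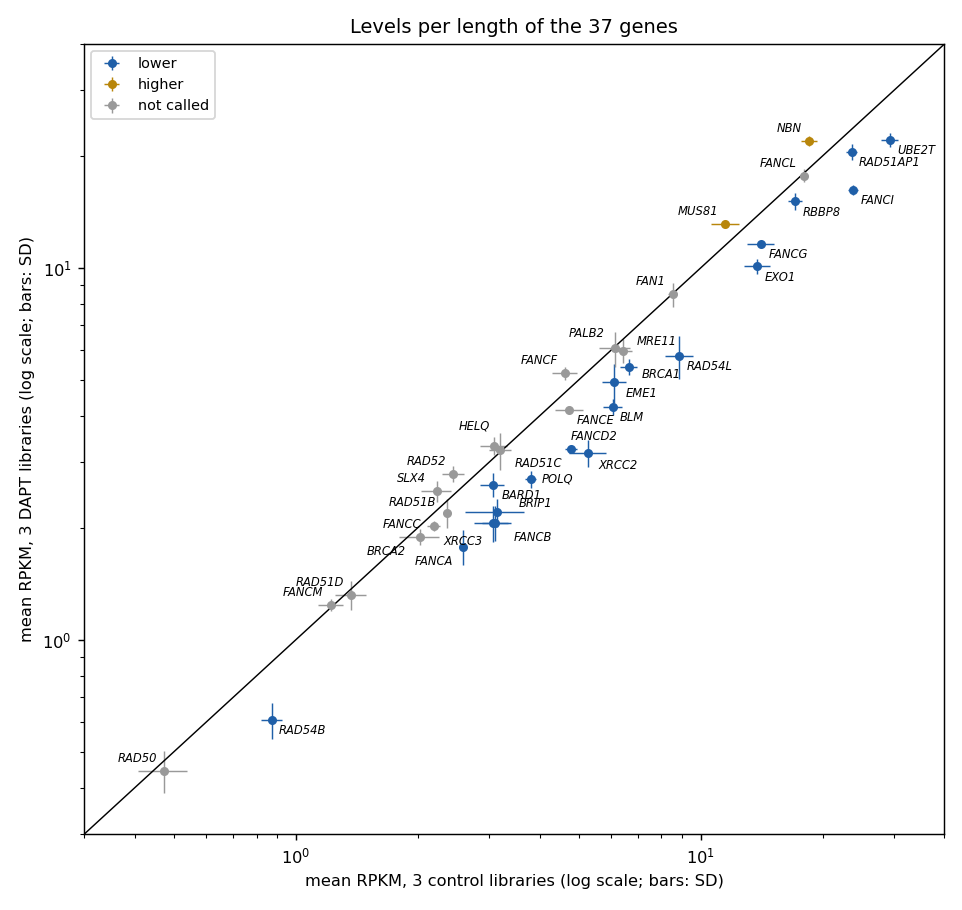
Mean RPKM of each of the 37 genes in the 3 controls (horizontal, log scale) and the 3 DAPT libraries (vertical, log scale), with SD bars and the line of equality. UBE2T is highest in controls at 29.3 RPKM and level with NBN in DAPT libraries at 22.1 and 21.9 RPKM, and only NBN (18.5 and 21.9 RPKM) and MUS81 (11.5 and 13.1 RPKM) are called above the line.

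Partner genes whose products act together were compared as the ratio of their RPKM within each library, for 7 pairs, with an exact two-sided permutation test over libraries that cannot go below p = 0.10 with 3 against 3. FANCD2 to FANCI was 0.203, 0.196 and 0.203 in controls and 0.211, 0.196 and 0.200 with DAPT. The pair fell in step, with a log2 ratio that differed by 0.01 (exact permutation p = 1.00), and from -0.02 to 0.03 when single libraries were left out. MUS81 to EME1 was 1.85, 1.91 and 1.87 in controls and 2.62, 2.36 and 3.08 with DAPT. These groups did not overlap, and the log2 ratio was higher by 0.51 (exact permutation p = 0.10, 0.233 adjusted over the 7 pairs).

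RAD51C to XRCC3 was 1.20, 1.07 and 0.890 in controls and 1.89, 1.63 and 1.25 with DAPT. The lowest DAPT ratio was just above the highest control ratio, and the log2 ratio was higher by 0.58 (exact permutation p = 0.10, adjusted 0.233). FANCL to UBE2T, the ligase against its E2, was 0.612, 0.592 and 0.644 in controls and 0.793, 0.789 and 0.813 with DAPT. The groups lay apart with little spread, and the log2 ratio was higher by 0.38 (exact permutation p = 0.10, adjusted 0.233). The ratios of BRCA1 to BARD1, BRCA2 to PALB2 and MRE11 to RAD50 overlapped between groups, with log2 differences of -0.06, -0.08 and -0.01. None of the 7 pairs could pass 0.05 in this design.

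**Figure D4:**
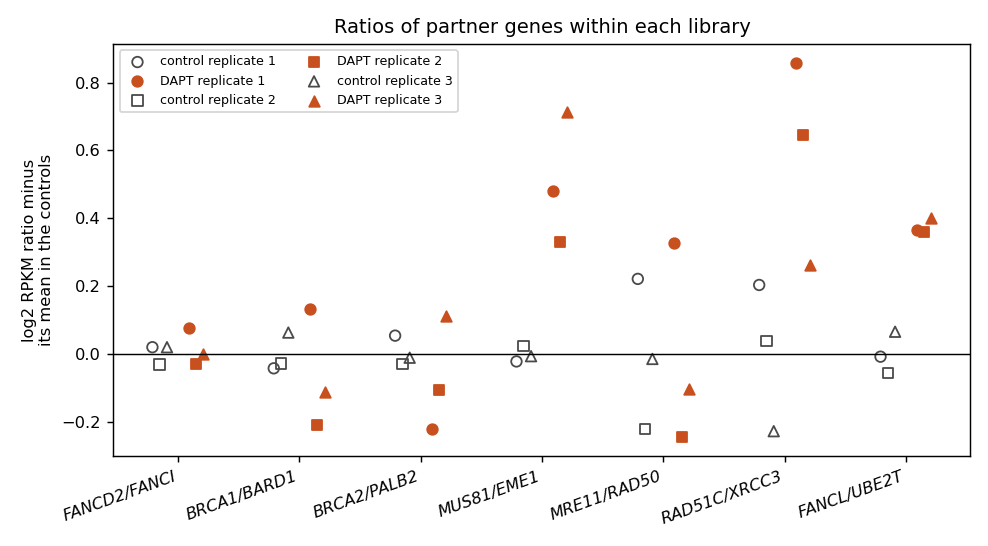
log2 ratio of RPKM of 7 partner pairs in each library, minus its mean in the 3 controls (vertical axis); open symbols are controls and filled symbols DAPT. MUS81/EME1, RAD51C/XRCC3 and FANCL/UBE2T lie above all controls in every DAPT library, with mean differences of 0.51, 0.58 and 0.38, while the other 4 pairs overlap.

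Further genes of the same pathways were described by counts. Of 40 tested genes from a list of 41 other homologous recombination genes, 19 were lower (47.5%) and 5 higher (12.5%), where 18.0% and 17.2% of all tested genes were, and the number lower was 12 in DESeq2. The median log2 fold change of this list was -0.19. Among the called genes of that list with large changes were DMC1, the meiotic recombinase, at -0.73 from a low level of 2.82 CPM in controls, RPA3, a subunit of the single-strand binding protein, at -0.57, and RMI2, a partner of BLM, also at -0.57.

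Among 19 tested genes from a list of 21 other Fanconi anemia genes, 5 were lower (26.3%, against 18.0% of all tested genes) and 3 higher (15.8%, against 17.2%), with a median of -0.03. Among the large changes in log2 were those of UHRF1, which also binds crosslinks, at -0.69, CENPX, a FANCM partner, at -0.45 and EME2, another MUS81 partner, at 0.34. EME2 gave 34.6, 34.7 and 38.0 CPM in controls and 43.8, 45.3 and 46.7 CPM with DAPT, with no overlap (edgeR adjusted p = 0.000737). EME1 and EME2, the alternative partners of MUS81, thus had opposite signs.

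Of 17 tested genes from a list of 18 end joining genes, which ligate breaks without a template, 5 were lower (29.4%, against 18.0%) and 2 higher (11.8%, against 17.2%), with a median log2 fold change of -0.01. The Ku subunits XRCC5 at -0.48 and XRCC6 at -0.35 were lower, as was PAXX at -0.35, and the ligase LIG4 was higher at 0.42 (log2 fold changes). The S phase list, which shares some genes with the pathway lists, had 35 of 40 genes lower by edgeR's test (87.5%, against 18.0%) and none above 0 on the log2 scale, its log2 fold changes running from -0.81 to -0.03 around a median of -0.51. Among its large changes were those of CDCA7 at -0.81 and the helicase subunits MCM7 at -0.77 and MCM5 at -0.75. The median decrease of the 19 lower Fanconi anemia and recombination genes, chosen as lower, was -0.52.

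**Figure D5:**
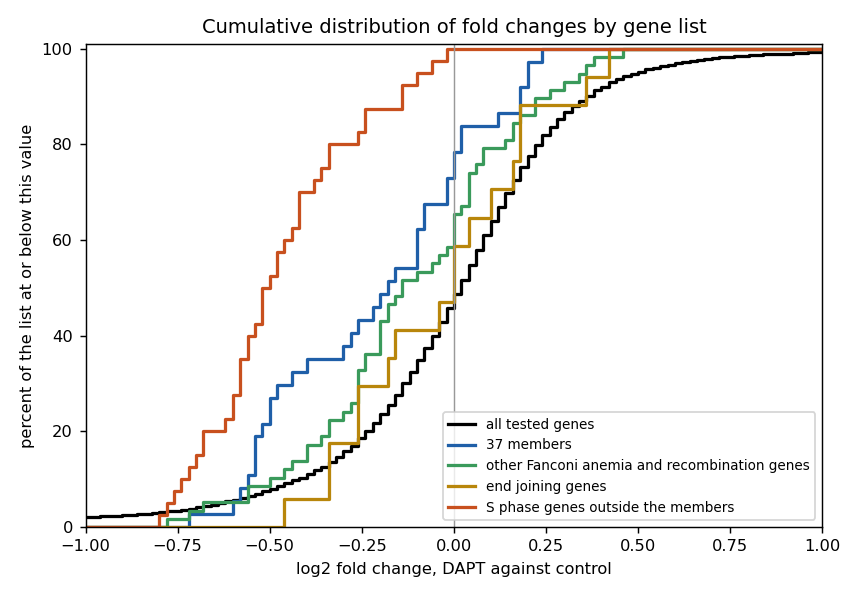
Percent of each gene list at or below a given log2 fold change (horizontal axis), for all 15001 tested genes, the 37 genes, other Fanconi anemia and recombination genes, end joining genes and S phase genes. The median of the 37 genes (-0.19) lies between that of S phase genes (-0.51) and that of all genes (0.01).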

How the data were processed

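HSC-4 cells were treated for 24 h, and libraries were made with a strand-specific kit and sequenced as 75-base single reads. Trimming by the authors used Trim Galore and alignment to GRCh38 used HISAT2, after which featureCounts 1.6.3 counted reads over the exons of each Ensembl release 96 gene on its own strand. The deposited values are these raw read counts per gene and library, and reads that fitted several places or several genes were not counted. Such loss lowers the level of genes that share exons or have near-identical copies.

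The labels gave groups and replicate numbers, while the study's methods gave dose, vehicle and time. Symbols were matched by identifier for 58472 of 58884 genes. Genes were tested with edgeR 4.0.16 in R 4.3.3 (low-count filter by group with minimum count 10, TMM scaling, robust quasi-likelihood fit, F test, Benjamini-Hochberg adjustment over 15001 genes, threshold 0.05). CPM and RPKM used TMM library sizes and the exon lengths of the count files. Standard errors were derived from the test statistic. Total counts of 12276313 to 16317672 limit the precision of genes with few reads. A floor of 3 counts was noted for each library but entered no test, filter or standard error. The alternatives were DESeq2 1.42.0, limma-voom (limma 3.58.1), other scaling, filters and threshold, a replicate block and leaving out each library. The fit was also run on simulated counts, with far fewer changed genes than were called here, so that run does not test these calls.

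Every one of the 37 genes was accounted for. Full values went to the 12 called genes with the largest changes and to every higher gene, and the 4 called genes with the largest changes in each other list were named, less those not reported here, with HES1 and HEY1 as the treatment check. The genes, lists and motifs were chosen with earlier results of these data known, so no list is independent support. The listed gene FIRRM had no matching symbol.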

Additional observations from a re-analysis of the deposited data

How the results depend on the processing

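The number of the 37 genes called lower was 19, and lay between 14 and 18 when each library was left out, at 17 in DESeq2 and at 14 with an adjusted p under 0.01. The number called higher was 2, lay between 1 and 2 when each library was left out, and was 1 in DESeq2 and 1 with an adjusted p under 0.01. The calls of 14 lower genes and of NBN held in every fit run at the threshold of 0.05. Leaving out single libraries gave 12 to 15 other homologous recombination genes lower (19 in the fit reported, 12 in DESeq2) and 2 to 5 higher, 1 to 3 other Fanconi anemia genes higher and 1 to 2 end joining genes higher. Leaving out a library also leaves fewer samples.

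Differences in log2 ratio between groups crossed 0 for 3 partner pairs when single libraries were left out, from -0.02 to 0.03 for FANCD2 to FANCI, from -0.16 to 0.01 for BRCA1 to BARD1 and from -0.17 to 0.11 for MRE11 to RAD50. Under scaling by library size alone the log2 fold change was 0.02 for FANCL, 0.03 for PALB2, 0.01 for RAD51D and 0.04 for FAN1, all of which were below 0 in the fit reported and passed in neither. Leaving out single libraries moved FANCM from -0.04 to 0.05, PALB2 from -0.11 to 0.05, RAD50 from -0.18 to 0.02, RAD51C from -0.04 to 0.10, RAD51D from -0.10 to 0.03 and FAN1 from -0.05 to 0.05. The cause of these changes was not tested.

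No sign of pairing by replicate number was seen, and the labels do not state whether same-numbered libraries belong together. Same-numbered libraries correlated at 0.0194, 0.0376 and -0.0193 in their deviations from the group means over 14199 genes. With the number as a replicate block, 18 of the 37 genes were lower and 2 higher, and over all genes 2737 were lower and 2558 higher, against 2707 and 2574.

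Few reads were counted for RAD50 and RAD54B, where 76.9% and 73.8% of exonic bases are shared with another gene. An effect of depth on genes with few reads was not tested.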
